A study of Mus musculus with 2 samples.

Results

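Mature oligodendrocytes, the nuclei that the authors annotated as OGC, made up 1702 of the 16314 nuclei in 2 single-nucleus ATAC-seq libraries from mouse primary motor cortex. They were taken by that annotated name alone, 782 of 7440 nuclei in replicate 1 and 920 of 8874 nuclei in replicate 2. None of the 17 deposited names was for immature oligodendrocytes, and whether such nuclei stand under OGC was not tested. Both libraries were made on the droplet-based 10x platform from the MOp-2 dissection of adult male C57BL/6J mice, and they form 1 condition, with no treatment, transgene or control group. The methods describe each biological replicate as dissected tissue combined from more than 1 animal, with sexes kept apart, and do not say whether this holds for these libraries. The spread between them may therefore be technical. With 2 libraries of 1 condition no test between groups was possible, and an exact two-sided sign-flip test over 2 libraries could not go below p = 0.5, so no p-value is given. Nuclei were not treated as replicates.

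Oligodendrocytes wrap axons of the central nervous system in myelin, the lipid-rich sheath that allows fast conduction, and support the axons they cover. They arise from oligodendrocyte precursor cells (OPC), which remain in the adult cortex and divide there. The other glia compared here are astrocytes (ASC), which take up transmitter and potassium and contact vessels and synapses, and microglia (MGL), the resident macrophages of the brain. ATAC-seq marks open chromatin with a transposase that cuts and tags accessible DNA, so that each unique fragment is the product of a pair of cuts in 1 nucleus.

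The study lists 4 genes as markers of this cell type. Their positions were taken here from GENCODE M21 on mm10 (GRCm38), where each is annotated as protein-coding. Mog, which encodes a glycoprotein on the outer surface of myelin, spans 37010743 to 37023398 on the minus strand of chromosome 17. Mal, which encodes a proteolipid of compact myelin, spans 127633226 to 127656695 on the minus strand of chromosome 2. Opalin, which encodes a membrane glycoprotein of oligodendrocytes, lies on chromosome 19 from 41061710 to 41077113 on the minus strand. Ppp1r14a, which encodes an inhibitor of myosin phosphatase, lies on chromosome 7 from 29289308 to 29293801 on the plus strand. The tables used here give fragment counts per nucleus and no values per gene, so accessibility at these genes was not analysed here and the name OGC was not checked against its markers. The deposited names and the embedding were both made by the authors from chromatin accessibility, and where they coincide this is a description of how the nuclei were sorted.

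Oligodendrocytes took nearly the same share of both libraries. In replicate 1 they were 10.5% of nuclei, with a 95% interval of 9.82 to 11.2%. In replicate 2 they were 10.4% (9.74 to 11.0%), which gave a mean of 10.4% ± 0.101 (SD, n = 2). Intervals here are exact Clopper-Pearson intervals for shares and log-method intervals for ratios, at 95%, and cover counting error only. The log2 ratio of the share in replicate 2 over replicate 1 was -0.02, with an interval of -0.15 to 0.11. Among the 4 glial names, OGC were 32.9% of nuclei in replicate 1 (31.0 to 34.8%) and 34.7% in replicate 2 (32.9 to 36.6%).

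Set against its own lineage, the cell type was steady from library to library. The ratio of OGC to OPC nuclei was 2.80 (interval 2.44 to 3.21) and 2.81 (2.48 to 3.19) in replicates 1 and 2, so that OGC were 73.7% and 73.8% of the nuclei of both names together. OGC and ASC were about equally frequent, at 0.976 OGC per ASC in replicate 1 (0.885 to 1.08) and 1.03 in replicate 2 (0.944 to 1.13), and both intervals held 1. Against microglia the ratio varied more, 1.52 (1.36 to 1.70) and 1.79 (1.61 to 1.99), since MGL numbered 514 in each library while OGC numbered 782 and 920. These intervals overlapped.

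Neurons outnumbered oligodendrocytes about equally in both libraries. There were 6.04 neuronal nuclei per OGC nucleus in replicate 1 (5.60 to 6.51) and 6.24 in replicate 2 (5.82 to 6.69), or 6.14 ± 0.141 (SD, n = 2). Of these, 4.96 and 5.11 were glutamatergic, the excitatory projection neurons. GABAergic nuclei, the inhibitory interneurons, were slightly more numerous than OGC, with 1.07 (0.973 to 1.18) and 1.13 (1.03 to 1.23) per OGC nucleus. Only the interval of replicate 1 held 1 for that last ratio. Nuclei of the vessel wall and meninges were fewer, with 5.47 and 5.03 OGC nuclei per vascular and leptomeningeal nucleus (VLMC) and 14.2 and 16.4 per pericyte (PER). For vascular endothelial nuclei (VEC) the ratio was 5.39 (4.52 to 6.44) in replicate 1 and 3.72 (3.24 to 4.29) in replicate 2. Those intervals did not overlap, and the library with fewer OGC per VEC was the one with 247 VEC nuclei against 145. A share of nuclei in the tables cannot be told apart from a difference in how many nuclei of a cell type survived isolation and the filters.

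Oligodendrocyte nuclei were shallow. The median OGC nucleus held 2466.5 unique fragments in replicate 1 and 2326.5 in replicate 2, or 2396.5 ± 99.0 (SD, n = 2). The middle 50% ran from 1945.5 to 3226.25 and from 1809.75 to 3042.25 fragments, and the extremes from 1035 to 10021 and from 1006 to 9665. Since the lowest count in the deposited tables was 1000 for any nucleus, the lower end of the distribution stops there. With 10.5% and 10.4% of nuclei, OGC carried 2113476 of 48179226 unique fragments in replicate 1 and 2373643 of 55337466 in replicate 2, which is 4.39% and 4.29% of each library.

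Among the glia, oligodendrocytes lay between microglia and the other names in median depth, in the same order in both libraries. Astrocytes had medians of 3329 and 3023 unique fragments, OPC of 3660 and 3276, and microglia of 2278 and 2063. The OGC median was thus 0.741 and 0.770 of that of ASC (mean 0.755 ± 0.0203, SD, n = 2) and 0.674 and 0.710 of that of OPC (mean 0.692 ± 0.0256). It was 1.08 and 1.13 times that of MGL. The distance of each mean ratio from 1 was larger than the SD between libraries, but the SD rests on 2 values. A randomly drawn OGC nucleus had more fragments than a randomly drawn nucleus of the same library in 29.8% and 33.9% of pairs with ASC, in 25.4% and 28.7% with OPC, and in 56.3% and 58.3% with MGL. The distributions therefore overlapped widely. Next to VLMC the OGC median was 0.890 and 0.916, and next to pericytes 1.05 and 1.13. Against neurons the gap was wider, at 0.293 and 0.299 of the glutamatergic and 0.348 and 0.365 of the GABAergic median.

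**Figure D1:**
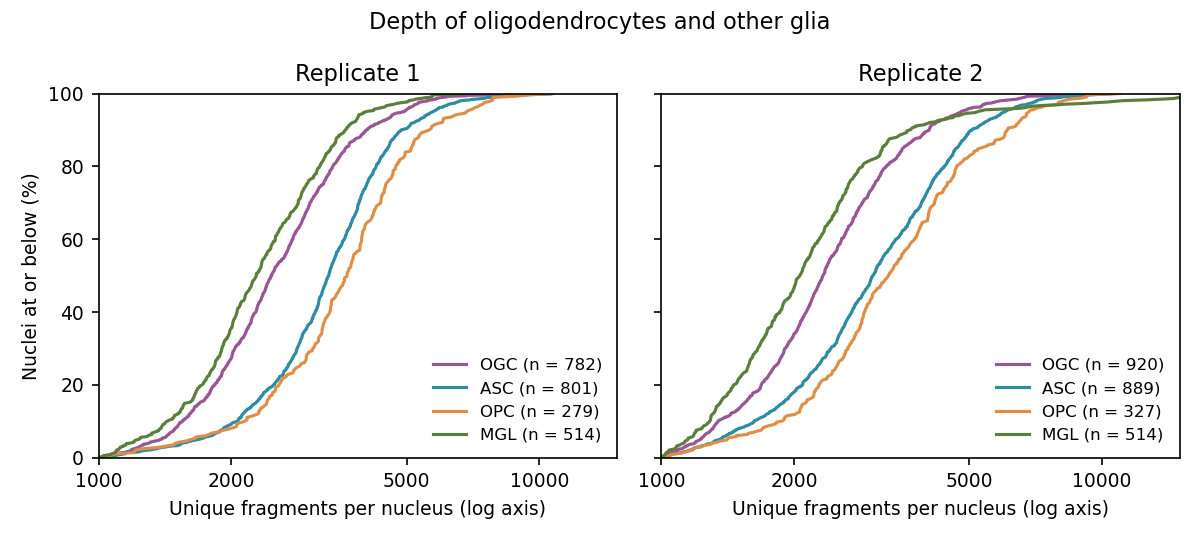
Cumulative share of nuclei (vertical axis, percent) at or below each number of unique fragments (horizontal axis, logarithmic, cut off at the right) for OGC, ASC, OPC and MGL in each library, with the number of nuclei in the key. In both panels the OGC curve lies right of that of MGL over most of its course and left of those of ASC and OPC, with medians of 2466.5 and 2326.5 fragments.

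The tails of the depth distribution differed as well. Nuclei with under 1500 unique fragments were 8.31% and 13.5% of OGC, more than the 3.25% and 7.99% of ASC or the 3.94% and 6.12% of OPC, and less than the 11.7% and 21.6% of MGL. Nuclei with 5000 fragments or more were 4.48% and 4.13% of OGC, against 9.74% and 10.5% of ASC and 16.1% and 17.4% of OPC. MGL had 2.53% and 5.45%, so that they were below OGC in replicate 1 and above in replicate 2. The spread of log10 unique fragments among OGC nuclei was 0.164 and 0.177 (SD over nuclei), and that of ASC was 0.159 and 0.193. From replicate 1 to replicate 2 the OGC median changed by a factor of 0.943, that of ASC by 0.908, of OPC by 0.895 and of MGL by 0.906. OGC therefore changed least of the 4 glial names between the libraries.

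The stages of counting moved in parallel. The median OGC nucleus had 2999 and 2871 total fragments, 2870.5 and 2744 uniquely mapped ones and 2857 and 2730 properly paired ones before removal of duplicates left the 2466.5 and 2326.5 above. In total fragments the ratio to ASC was 0.738 and 0.773, close to that in unique fragments. The mitochondrial column was 0 in every nucleus of both libraries and was not used.

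The share of OGC among all nuclei differed strongly between low and high depth. OGC were 25.2% and 24.1% of nuclei with 1000 to 1500 unique fragments, 34.7% and 32.6% of those with 1500 to 2000, and 32.5% and 28.1% of those with 2000 to 3000. They were 18.4% and 16.0% from 3000 to 4000, 8.87% and 7.24% from 4000 to 5000, and 2.15% and 1.82% from 5000 to 7500. At 7500 or more they were 4 of 2892 nuclei (0.138%, interval 0.0377 to 0.354%) and 5 of 2950 (0.169%, 0.0551 to 0.395%). Both libraries thus had their highest OGC share in the range of 1500 to 2000 fragments and a lower one on either side. The deepest range was mostly neurons, with 63 and 98 non-neuronal nuclei. Among non-neuronal nuclei alone the fall was smaller. There OGC were 40.0% and 38.3% with 1500 to 2000 fragments, 16.2% and 15.6% from 5000 to 7500, and 6.35% and 5.10% at 7500 or more.

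The ratio to astrocytes turned over along the same scale. There were 2.50 and 1.75 OGC per ASC with 1000 to 1500 fragments, 3.08 and 2.12 with 1500 to 2000, and 1.50 and 1.30 with 2000 to 3000. From 3000 to 4000 the ratio was 0.527 and 0.709, and from 4000 to 5000 it was 0.373 and 0.387. It was 0.463 and 0.407 from 5000 to 7500, and 0.364 and 0.417 at 7500 or more, where OGC numbered 4 and 5. Above 4000 fragments the ratio thus showed no steady fall. The near-equal totals of both cell types were therefore made of an excess of OGC below 3000 fragments and an excess of ASC above.

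**Figure D2:**
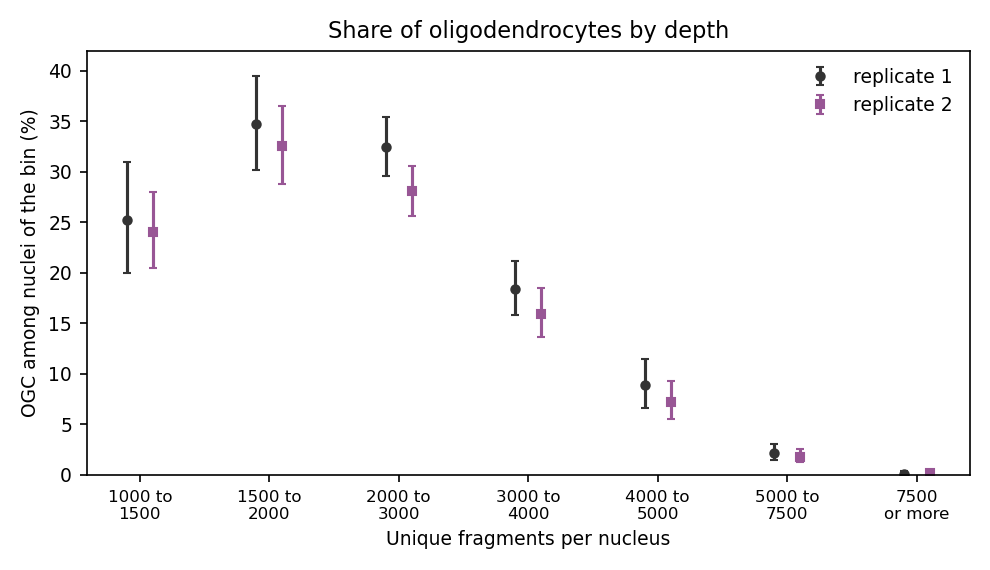
Share of OGC among all nuclei of a depth range (vertical axis, percent) against the number of unique fragments (horizontal axis, 7 ranges of unequal width), with exact 95% intervals as bars. Both libraries peak at 1500 to 2000 fragments, at 34.7% and 32.6%, and lie at 0.138% and 0.169% in the deepest range.

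The median oligodendrocyte nucleus mapped uniquely slightly more often than that of the other glia. The uniquely mapped share, which is uniquely mapped over total fragments of a nucleus, had an OGC median of 96.1% in replicate 1 and 96.2% in replicate 2 (mean 96.2% ± 0.054, SD, n = 2). ASC had 95.6% and 95.7%, OPC 95.9% and 95.9%, and MGL 94.5% and 94.4%. OGC exceeded ASC by 0.508 and 0.526 percentage points, OPC by 0.270 and 0.265, and MGL by 1.60 and 1.81. All of these were larger than the SD of 0.054 between the OGC medians of the libraries. Pericytes were higher, with OGC minus PER at -0.163 and -0.0983 points. GABAergic neurons were also higher, with OGC minus GABAergic at -0.152 and -0.125 points, while glutamatergic neurons were level with OGC, at 0.00 and -0.06 points.

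The difference from astrocytes and microglia was also present among nuclei of like depth. In 5 ranges between 1000 and 5000 unique fragments and 2 libraries, 10 comparisons in all, the OGC median was above that of ASC in 10, by 0.240 to 1.17 points, and above that of MGL in 10, by 1.27 to 2.05 points. It was above that of OPC in 9, with differences of -0.0161 to 0.30 points. Above 5000 fragments, where OGC are few, the order against OPC differed between the libraries. From 5000 to 7500 fragments OGC minus OPC was 0.161 points in replicate 1 (31 OGC and 38 OPC nuclei) and -0.132 in replicate 2 (33 and 46), and at 7500 or more it was 0.221 (4 and 7) and -0.394 (5 and 11). OGC stayed above ASC there, by 0.0683 to 0.465 points. Below 5000 fragments the exception was the range of 1500 to 2000 fragments in replicate 2, which held 18 OPC nuclei. In replicate 1 the lowest ranges, up to 2000 fragments, held 11 OPC nuclei each, and the range from 4000 to 5000 held 14 MGL nuclei in replicate 1 and 15 in replicate 2. Within OGC the mapped share was slightly lower at higher depth, with weak Spearman correlations of -0.0690 (n = 782 nuclei) and -0.109 (n = 920 nuclei). The OGC median was 96.4% and 96.3% with 1000 to 1500 fragments and 96.0% and 95.7% from 5000 to 7500. Both quantities of a nucleus come from the same fragments, so these correlations are descriptions.

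**Figure D3:**
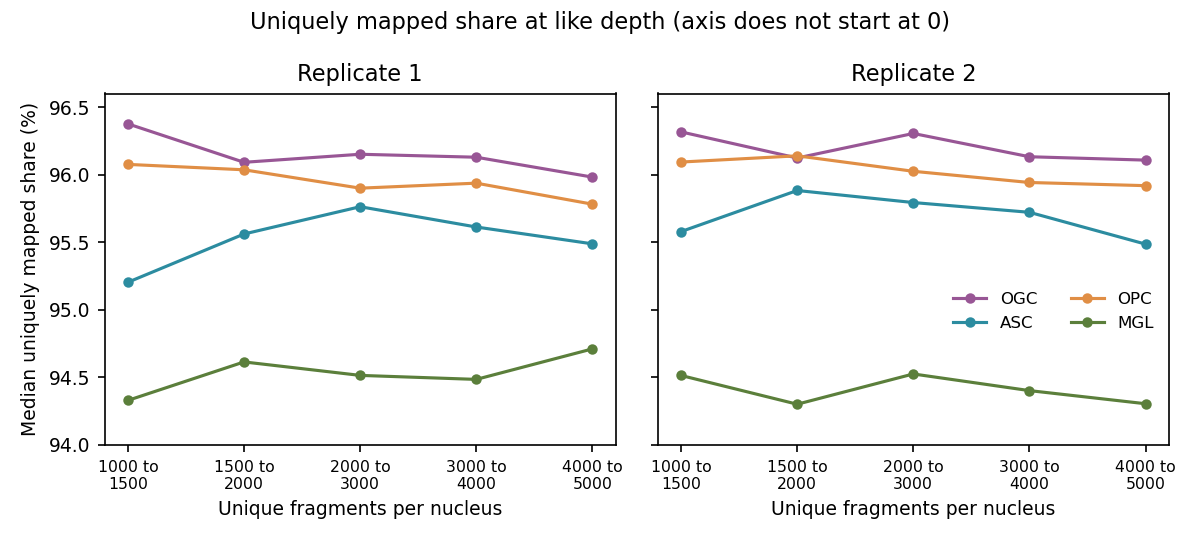
Median uniquely mapped share (vertical axis, percent, starting at 94%) of OGC, ASC, OPC and MGL in 5 ranges of unique fragments (horizontal axis), per library. OGC lie above ASC and MGL in all 10 ranges drawn and above OPC in 9, and MGL lie lowest, 1.27 to 2.05 points below OGC.

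Few oligodendrocytes mapped poorly. The 5th percentile of the mapped share was 94.2% and 94.0%, and 13 nuclei in each library (1.66% and 1.41%) lay under 93%. The same was true of 12.6% and 18.3% of MGL and of 4.66% and 2.45% of OPC. ASC had 0.499% in replicate 1, less than OGC, and 2.81% in replicate 2, and in replicate 1 their 5th percentile was also 94.2%. A single OGC nucleus stood far from the rest, a nucleus of replicate 2 with 2237 uniquely mapped of 3485 total fragments (64.2%). The next lowest were 87.0% and 88.4%, both in replicate 1. The nuclei at 64.2%, 87.0% and 88.4% lay in the main body of OGC in the embedding. Of the nuclei under 93%, 11 and 8 lay in this body of 700 and 801 OGC nuclei. Another 2 and 4 lay in its arm of 76 and 102 nuclei, and 0 and 1 in a small island, both described below.

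Over all nuclei, pairing and duplication set OGC apart less. Properly paired fragments were 99.6% of uniquely mapped ones in both libraries. In the same ranges of depth the paired share of OGC was higher by small amounts in 10 of 10 comparisons with ASC (0.00174 to 0.199 points). The same held in 10 of 10 with OPC (0.0284 to 0.357 points), but in only 1 of 10 with MGL (-0.117 to 0.0139 points). The median duplicate share was 14.0% and 14.9% for OGC and likewise 14.0% and 14.9% for ASC, with differences of -0.03 and 0.02 points. Among nuclei of like depth OGC had the higher duplicate share in 9 of 10 comparisons with ASC, by -0.140 to 0.764 points, so that equal medians over all nuclei went with slightly more duplicates than in ASC at a given depth in most ranges. They also had the higher share in 9 of 10 comparisons with OPC (-0.380 to 1.01 points), but in only 2 of 10 with MGL (-0.350 to 0.408 points). The duplicate share of OGC nuclei was higher at higher depth, with Spearman correlations of 0.365 and 0.334.

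In the UMAP embedding, a 2-dimensional layout in which nuclei of like accessibility lie near each other, oligodendrocytes were the most spread of the 4 glial names along the first axis, and along the second when all of their nuclei were counted. The SD over nuclei was 0.688 and 0.746 units along the first axis and 0.919 and 1.09 along the second. For ASC these were 0.392 and 0.432, and 0.503 and 0.521. OPC were narrower on the first axis, at 0.233 and 0.234, and spread by 0.415 and 0.482 on the second. MGL came nearest to OGC on the second axis, at 0.779 and 0.937. That axis rested in part on 23 nuclei of a small island described next, without which the OGC spread was 0.827 and 0.897, below that of MGL in replicate 2. On the first axis it was 0.686 and 0.743 without them. Of OGC nuclei, 95% lay within 2.09 and 2.25 units of the median position, against 1.03 and 1.14 for ASC, 0.915 and 1.04 for OPC and 1.41 and 2.14 for MGL. Without the small island the OGC distance was 2.00 and 2.17. Lengths in such a layout carry no unit and are not proportional to differences in accessibility.

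OGC fell into 2 islands, where nuclei within 0.5 units of each other were joined. The main island held 1679 nuclei (98.6% of OGC) and the small one 23, and joining within 0.3 or 1 units gave the same numbers. ASC, OPC, MGL, PER and VLMC each formed 1 island at all of these distances. VEC also fell apart, into 3 islands at 0.3 and 0.5 units and 2 at 1 unit, with 36 nuclei off the main island and 90.8% on it at 0.5 units. The main OGC island had a broad body and an arm that reached upward along the second axis in the direction of the OPC. The arm was set as the nuclei of the main island with a second coordinate of -3.4 or more, a limit chosen after the layout had been seen. It held 76 nuclei in replicate 1 (9.72% of OGC, interval 7.73 to 12.01%) and 102 in replicate 2 (11.1%, 9.13 to 13.3%). The body held 700 and 801 nuclei (89.5% and 87.1%).

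**Figure D4:**
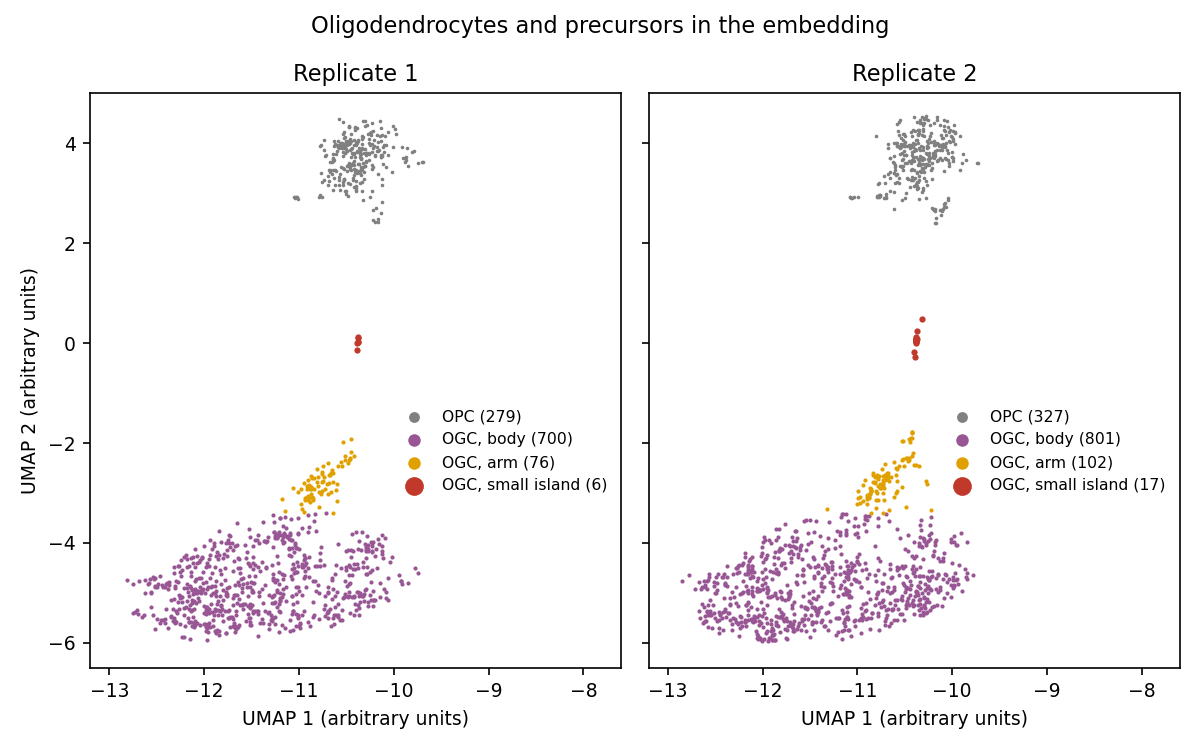
Positions of OGC and OPC nuclei in the deposited UMAP embedding (both axes in arbitrary units), one panel per library, with OGC coloured by body, arm and small island and nuclei counted in the key. The small island of 6 and 17 nuclei lies between the arm of OGC and the OPC.

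The small island lay between oligodendrocytes and their precursors. Its nearest OGC nucleus of the main island was 1.50 units away and its nearest OPC nucleus 1.92 units, while the main island and the OPC were 4.18 units apart at their closest. It was thin, 0.0847 units wide and 0.755 units long. It held 6 nuclei of replicate 1 (0.767% of OGC, 0.282 to 1.66%) and 17 of replicate 2 (1.85%, 1.08 to 2.94%), a log2 ratio of 1.27 with an interval of -0.07 to 2.60. That interval covers counting error only and is too wide to show whether the libraries differed in this share. Nuclei of both libraries contributed.

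These 23 nuclei were deep for oligodendrocytes. In replicate 1 they held 2673, 3485, 4609, 5206, 5319 and 5569 unique fragments. In replicate 2 the lowest held 1268, the median 4858 and the highest 9665. Of the 23, 21 lay above the OGC median of their own library, and 16 had 4000 fragments or more. Their median of 4907.5 and 4858 was 2.04 and 2.14 times that of the body and 1.34 and 1.48 times that of OPC. Their mapped share was lower than that of most OGC, with medians of 95.7% and 95.6% and 18 of 23 nuclei under the OGC median of their library. Potential doublets had been removed by the authors, and a doublet score per nucleus was not analysed here, so the part of doublets in this depth was not tested. None of the 23 carried a barcode that was found in both libraries. Few OGC did, 14 of 782 nuclei in replicate 1 and 10 of 920 in replicate 2, so little can be read from this.

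The arm lay between the body and the small island in depth as well as in position. Its median was 3154 and 3046.5 unique fragments, which is 1.31 and 1.34 times the 2411.5 and 2268 of the body. Nuclei with 5000 fragments or more were 13.2% and 14.7% of the arm and 3.14% and 2.00% of the body. Of all 73 OGC nuclei of that depth, 38 lay in the body, 25 in the arm and 10 in the small island, which are 52.1%, 34.2% and 13.7%. In bands along the second axis, the median was 2325 and 2257.5 fragments in the lowest band of the body and 3621 and 3500.5 in the band of the arm nearest the OPC. The course differed between the libraries. In replicate 1 the lower band of the arm, from -3.4 to -2.8, had a median of 2933 against 2650.5 in the adjoining band of the body. In replicate 2 that lower band held 46 of the 102 arm nuclei and had a median of 2371, under the 2428.5 of the adjoining body, so there the greater depth of the arm lay in its upper band. Spearman correlations of depth with the second axis were 0.186 and 0.189 over all OGC and 0.0983 and 0.0632 within the body. With the first axis they were 0.0144 and -0.0269 over all OGC and -0.0565 and -0.110 within the body, where the band at the right edge had the lowest median in both libraries, 2218.5 and 2084 fragments.

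The mapped share was lower in the arm than in the body. The median mapped share was 96.2% and 96.3% in the body and 95.8% and 95.8% in the arm, an arm minus body difference of -0.345 and -0.495 points. This put the arm, at 95.825% and 95.757%, between ASC (95.616% and 95.674%) and OPC (95.854% and 95.935%). The arm differed from OPC by -0.0284 and -0.178 points. It was nearer to OPC in replicate 1 and nearer to ASC in replicate 2. Among nuclei with 2000 to 3000 unique fragments the arm had 95.6% and 95.8% and the body 96.2% and 96.3%, and with 4000 to 7500 it had 95.5% and 95.5% against 96.1% and 96.2%. From 3000 to 4000 fragments replicate 1 went the other way, with 96.24% in 19 arm nuclei and 96.11% in the body, while replicate 2 had 95.9% in 18 arm nuclei and 96.1%. The arm was thus lower at like depth in 5 of 6 comparisons. Over all OGC nuclei the Spearman correlation of mapped share was -0.205 and -0.201 with the second axis and -0.152 and -0.176 with the first, so neither axis stood apart. Within the body the median share was 96.3% and 96.4% in the band at the left edge of the first axis, which held 25 and 38 nuclei, and 95.9% and 96.1% in the band at its right edge.

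**Figure D5:**
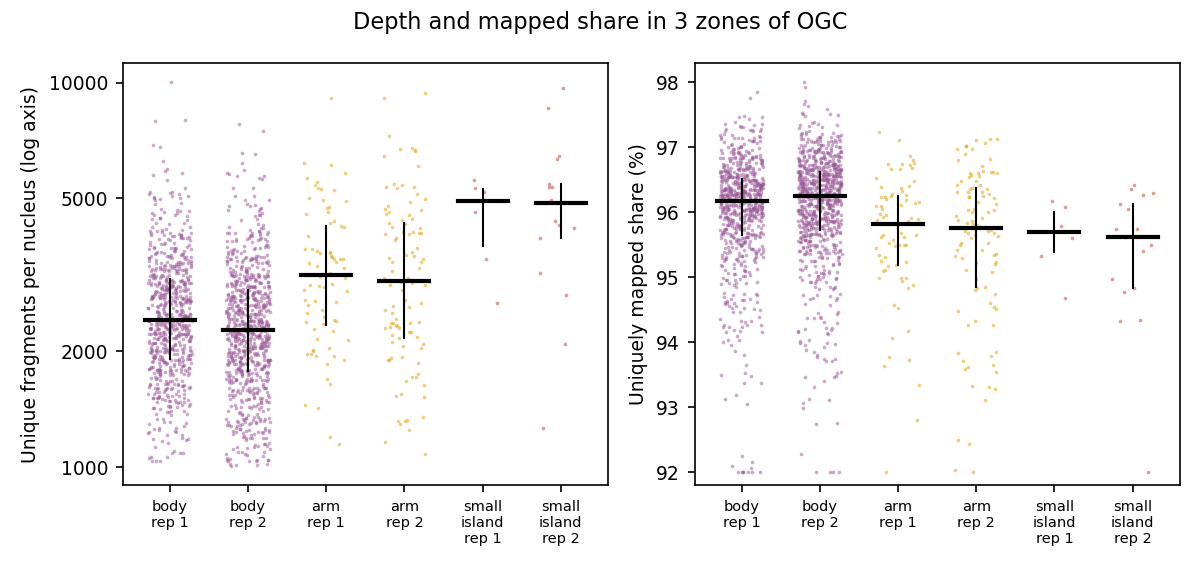
Unique fragments (left, logarithmic axis) and uniquely mapped share (right, percent, axis cut off below, with lower values drawn at its lower edge) of every OGC nucleus in the body, arm and small island, per library. Horizontal lines are medians and vertical lines the range from 25th to 75th percentile. Median depth is 2411.5 and 2268 fragments in the body, 3154 and 3046.5 in the arm and 4907.5 and 4858 in the small island.

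Oligodendrocyte nuclei of both libraries were closely mixed. Of the 30 nearest neighbours of an OGC nucleus among OGC, the share from the other library was 0.961 times that of random mixing in replicate 1 and 0.988 times in replicate 2, with a mean of 0.975 ± 0.0186 (SD, n = 2). The mean was 0.984 for ASC, 0.973 for OPC and 0.946 for MGL. The median OGC position moved by 0.0971 units between libraries, close to the 0.103 of ASC and 0.0774 of OPC, and less than the 0.430 of MGL.

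Oligodendrocytes were also well separated from every other name, as were the other glia. Among their 30 nearest neighbours of any name, 100% in replicate 1 and 99.95% in replicate 2 were OGC. The share of own neighbours was 100% in both libraries for ASC, 99.93% and 99.98% for OPC, and 99.98% and 99.74% for MGL. Only 7 OGC nuclei, all in replicate 2, had a neighbour of another name. These neighbours were OPC in 10 cases and neurons named ITL23GL, of layer 2/3, in 5. They were not spread evenly, and the lowest share of own neighbours of an OGC nucleus was 73.3%. The small island held 23 nuclei, so the 30 neighbours of its nuclei always reached beyond it. Of the barcodes, 105 were found in both libraries. They belonged to OGC for 14 nuclei of replicate 1 and 10 of replicate 2, and 1 barcode was OGC in both.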

How the data were processed

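Nuclei of the MOp-2 dissection were profiled in 2 libraries. For every nucleus of a library the authors deposited 5 fragment counts (total, mapped uniquely, paired properly, unique after duplicate removal, and mitochondrial). They also deposited the log10 of the unique count plus 1, and UMAP coordinates, treated here as a score in arbitrary units. In the methods, bwa aligned the reads to mm10 and SnapTools filtered fragments and removed duplicates. Nuclei then had to pass minimums of fragments and TSS enrichment, and doublets were taken out. BWA and Cell Ranger ATAC stand in the submitters' processing notes, both with a version not given in the sources used here. The lowest unique count was 1000, so cell types of low depth, such as OGC, may have lost nuclei to that filter.

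Shares, ratios and medians were computed per library and then as mean and SD over 2 libraries. The mapped share is uniquely mapped over total, the paired share properly paired over uniquely mapped, and the duplicate share the part of properly paired fragments not kept as unique. Islands joined nuclei within 0.5 UMAP units and needed at least 10 nuclei. Mixing used 30 neighbours. The scripts were tested on simulated data. Alternatives were minimums of 2000 and 5000 fragments, leaving out the deepest 5% of nuclei, pooled nuclei, single libraries, means, matched depth, joining distances, neighbour numbers and leaving out shared barcodes. Leaving out the small island and moving the limit of the arm were chosen after seeing the data. The members, the 4 marker genes (all named) and the comparisons were chosen with earlier results of these data known. The software was scipy 1.17.1, pandas 2.3.3, numpy 2.4.6 and matplotlib 3.10.9 under Python 3.11.15. Doublet scores and TSS enrichment of single nuclei were not analysed here.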

Additional observations from a re-analysis of the deposited data

How the results depend on the processing

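Of 79 alternative values over 13 results, 51 stayed within 1 SD between libraries of the reported value, and 28 moved by more. Many of the 51 had little room to move. Each library alone stays within 1 SD by construction, and pooled nuclei give values near the mean of both libraries. Leaving out the deepest 5% of nuclei changed only the share and the neurons per OGC. The count of 51 is therefore no measure of robustness. A minimum of unique fragments moved most. With at least 2000, the OGC share was 8.11%, OGC per ASC 0.808, neurons per OGC 8.61, the OGC median 2812 fragments, and its ratio to ASC 0.828 and to OPC 0.773. With at least 5000, these were 0.803%, 0.429, 116.9, 5696.5, 0.971 and 0.918, the mapped share was 95.9%, the mixing ratio 0.997 and the share on the main island 48.3%, with 73 nuclei left to be joined. Leaving out the deepest 5% of nuclei gave a share of 11.0% and 5.68 neurons per OGC. Means over nuclei in place of medians gave 2641 fragments, a ratio to ASC of 0.781 and a mapped share of 95.9%. Without the small island the share was 10.3% and the spread along the second axis 0.862 in place of 1.01 units, with MGL wider in replicate 2. An arm limit of -3.8 or -3.0 gave 14.5% or 7.65% of OGC in the arm, 1.2 or 1.45 times the depth of the body, and an arm minus body mapped share of -0.262 or -0.538 points, in each case in the reported direction.

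Each library alone gave a share of 10.4 to 10.5%, OGC per ASC of 0.976 to 1.03, neurons per OGC of 6.04 to 6.24, a median of 2326.5 to 2466.5 fragments, ratios of 0.741 to 0.770 to ASC and 0.674 to 0.710 to OPC, a mapped share of 96.1 to 96.2% and 98.2 to 99.2% on the main island. Mixing could not be computed from 1 library. No paired analysis was possible because both libraries belong to 1 condition. With 2 libraries and no values per gene, neither differences between animals nor the identity of the arm and small island can be measured here, and the filter at 1000 fragments limits what is known of the shallowest OGC nuclei.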

Other observations

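A single nucleus of another name lay wholly among the oligodendrocytes. It was annotated as ITL23GL, a neuron of layer 2/3, came from replicate 1, and held 1135 unique fragments with a mapped share of 94.5%, and 100% of its 30 nearest neighbours were OGC.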
